A study of Homo sapiens with 2 samples.

Results

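The Krüppel-like factors (KLF) are a family of zinc finger transcription factors, and 10 of their genes, KLF2, KLF3, KLF4, KLF5, KLF6, KLF7, KLF9, KLF10, KLF11 and KLF13, are described here across 2 RNA-seq libraries. They were chosen by gene symbol, and all 10 were among the 26255 genes in the deposited tables. Both libraries came from OVSAHO, an established cell line from a human serous ovarian cancer. The perturbed library is labelled SMARCA2 stable and SMARCA4 knockdown, and the series text describes it as having raised SMARCA2 and lowered SMARCA4, the alternative ATPases of the SWI/SNF chromatin remodelling complex. The control library is labelled WT, and the series text calls it the control. Both cultures had 25 µM carboplatin, a DNA-crosslinking platinum drug, in the medium for 2 days, so no untreated culture enters any value below. There was 1 library per group, and no value has an error between cultures.

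KLF proteins carry a cluster of zinc fingers at the C-terminal end that is nearly shared across the family and binds GC-rich and CACCC-type DNA. Their N-terminal parts differ and recruit different partners. KLF3, with KLF8 and KLF12, binds the corepressor CtBP. KLF9, KLF10, KLF11 and KLF13, with KLF14 and KLF16, bind the corepressor SIN3. KLF2, KLF4, KLF5, KLF6 and KLF7 act mostly as activators. In epithelia the family is known for setting the balance between proliferation, cell-cycle exit and differentiation.

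Levels are FPKM, that is fragments scaled by the length of the transcript and by the depth of the library. They can be compared roughly between genes. About 8850000 fragments lie behind the perturbed values and 9050000 behind the control ones, as estimated from the steps of low values. Intervals beside a fold or a level are 95% intervals for counting error only, made from approximate fragment numbers. PCR copies are not independent molecules, and these intervals say nothing of the spread between cultures. They also leave out any bias by transcript length or GC content, which matters where levels of different genes are compared. SMARCA2 was at 2.60 and 0.205 FPKM and SMARCA4 at 4.49 and 27.9 FPKM in the perturbed and control libraries, each in the direction the series text gives. Of the 7 serous epithelial markers, 1 was called higher by the rule given below, WT1 at 5.52 and 1.53 FPKM, and 1 lower, KRT7 at 119 and 540 FPKM. PAX8 and EPCAM had higher values in the perturbed library and KRT8 and KRT18 lower ones, all above 20 FPKM, and MUC16 was listed at 0 and 0.0608 FPKM. The summed levels of the 6 fibroblast markers were 0.134 and 0.154 FPKM, and those of the 4 endothelial markers 0.787 and 0.717 FPKM. Of the leukocyte markers, 4 are reported and summed to 0.256 and 0.251 FPKM, with PTPRC and CD3E listed at 0 in both. Such bulk values cannot tell fewer cells of a kind from less RNA per cell.

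KLF10 was the most abundant of the 10 genes in each library and had the lowest ratio of the 9 listed above 0. It encodes a repressor first described as an early gene induced by TGF-beta. It was at 15.3 FPKM in the perturbed library against 33.3 FPKM in the control, 2.17-fold lower (1.94 to 2.44). Its partner in name and sequence, KLF11, another TGF-beta-inducible early gene, was at 3.25 and 5.61 FPKM, 1.73-fold lower (1.36 to 2.2). The activators KLF5 and KLF6 lay on the other side, at 1.66-fold and 1.36-fold higher. KLF2 and KLF13 had larger folds at low levels, 4.85-fold and 3.87-fold higher. KLF3 and KLF4 differed by less than their counting intervals, KLF9 rested on a handful of fragments, and KLF7 was listed at 0 in both libraries.

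**Figure D1:**
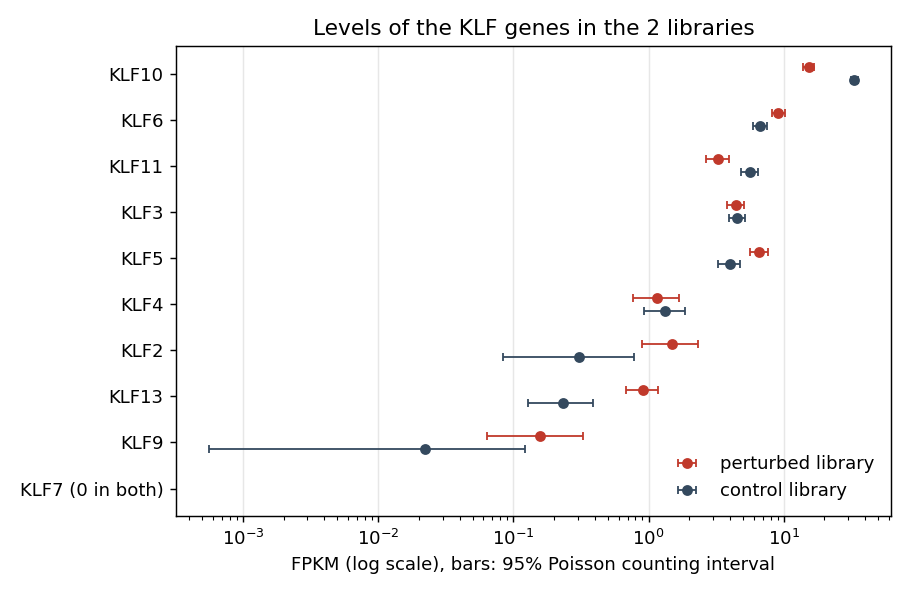
FPKM of each KLF gene on a log axis in the perturbed (red) and control (dark) libraries, 1 point per library, with 95% Poisson counting intervals as bars. KLF10 is the highest in both, at 15.3 and 33.3 FPKM, and KLF7, listed at 0, has no point.

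Calls followed a rule of size with a floor of 1 FPKM in either library: a log2 ratio of FPKM + 1 (perturbed over control) of 1 or above is called higher, and one of -1 or below is called lower. It is not a test. Of the 10 KLF genes, 7 were at 1 FPKM or more in a library and 3, KLF7, KLF9 and KLF13, were not. None of the 7 was called higher, against 7.85% of the 11785 genes at that level. The gene KLF10 was the 1 gene called lower, against 7.61% of all genes. With 7 genes, counts of 0 and 1 are near what these shares give. The median log2 ratio of the 7 was -0.03, beside -0.06 over all genes under the rule. Among the 7, 3 ratios were above 0 and 4 below.

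The call of KLF10 sat close to the threshold. Its log2 ratio was -1.07, and it was -0.94 with each library scaled to a common FPKM sum, -0.91 with a pseudocount of 5 FPKM and -0.90 after cubic trends on length, GC content and level were subtracted, each inside the threshold. KLF2 sat just short of the upper threshold at 0.93. The added 1 FPKM shrinks the ratio of so weak a gene. With 0.1 FPKM added instead, the log2 ratio of KLF2 was 1.96, and with libraries scaled to a common sum it was 1.04.

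**Figure D2:**
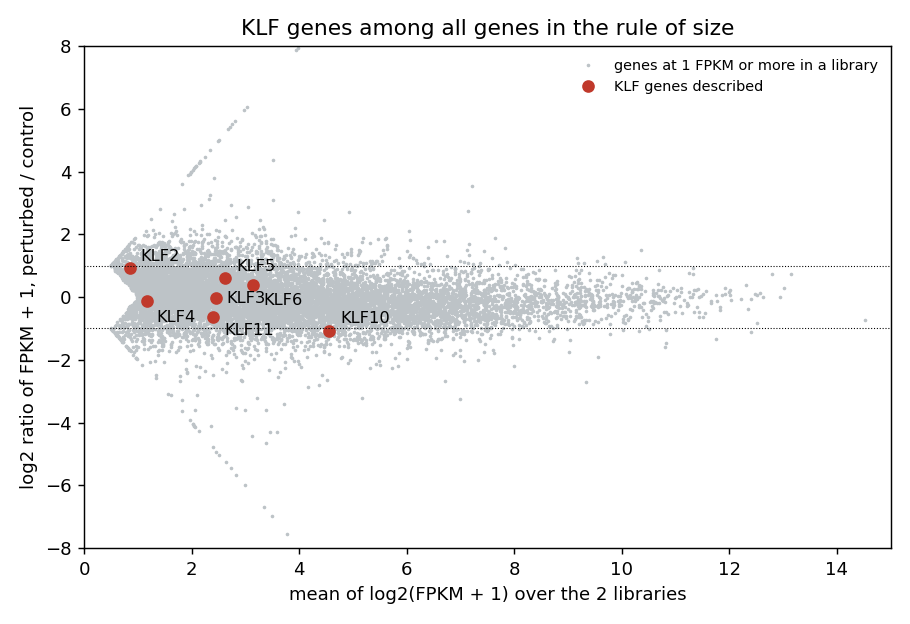
Log2 ratio of FPKM + 1 (perturbed over control) against the mean of log2(FPKM + 1), 1 grey point per gene at 1 FPKM or more in a library and red points for the 7 KLF genes among them. KLF10, at -1.07, lies just past the lower dotted line at -1, and KLF2, at 0.93, just short of the upper one.

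Among the activators, KLF6 was the most abundant. It encodes a ubiquitous factor known for its induction by tissue injury and for growth restraint in several epithelia. It was at 9.13 FPKM in the perturbed library against 6.71 FPKM in the control (fold 1.16 to 1.60). KLF5, which drives proliferation in the basal and crypt compartments of epithelia, was at 6.60 and 3.97 FPKM (fold 1.30 to 2.13). The perturbed library was the higher of the pair for both genes, and neither interval included a fold of 1. KLF4, a factor of epithelial differentiation and of induced pluripotency, was at 1.16 and 1.33 FPKM, a ratio of 0.867 (0.505 to 1.48). Its interval spans both directions, so no difference was detectable at this depth. KLF5 was 5.71 times the level of KLF4 in the perturbed library and 2.98 times in the control.

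KLF2, best known as the flow-induced factor of quiescent endothelium and of resting lymphocytes, was at 1.48 FPKM in the perturbed library against 0.305 FPKM in the control. The ratio of its values matched 19 and 4 whole fragments. The fold of 4.85 had an interval of 1.61 to 19.6, which excludes 1 and is wide. All 4 endothelial markers, which go with KLF2 in tissue, were under 1 FPKM in both. VWF was at 0.327 and 0.128 FPKM, 2.55-fold higher (1.19 to 5.96). CLDN5 was at 0.376 and 0.368 FPKM, CDH5 at 0.0575 and 0.169 FPKM, and PECAM1 at 0.0265 and 0.0519 FPKM. Their part in the KLF2 value was not tested. With the trends on length, GC content and level removed, the log2 ratio of KLF2 was 0.59. KLF7, a factor of neuronal outgrowth, was listed at 0 in both libraries. A listed 0 in a table without counts can be a failed estimate, so it does not show that the gene was silent.

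The SIN3-binding genes went in opposite directions. KLF10 and KLF11 were lower in the perturbed library, and KLF13, a broadly expressed factor known for late induction of the chemokine CCL5 in T cells, was at 0.903 FPKM against 0.233 FPKM. Its ratio matched 53 and 14 whole fragments, 3.87-fold higher (2.12 to 7.55). KLF9, a gene induced by glucocorticoid and thyroid hormone, was at 0.158 and 0.0221 FPKM. That corresponded to 7 fragments against 1, a fold of 7.15 whose interval of 0.919 to 322 includes 1. Both KLF9 and KLF13 were under 1 FPKM in both libraries and so outside the rule of size. KLF3, the CtBP-binding repressor of the set, was at 4.40 and 4.51 FPKM, a ratio of 0.976 (0.797 to 1.20). Its antisense neighbour KLF3-AS1, whose reads an unstranded library cannot separate from it, was listed at 0 in both.

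**Figure D3:**
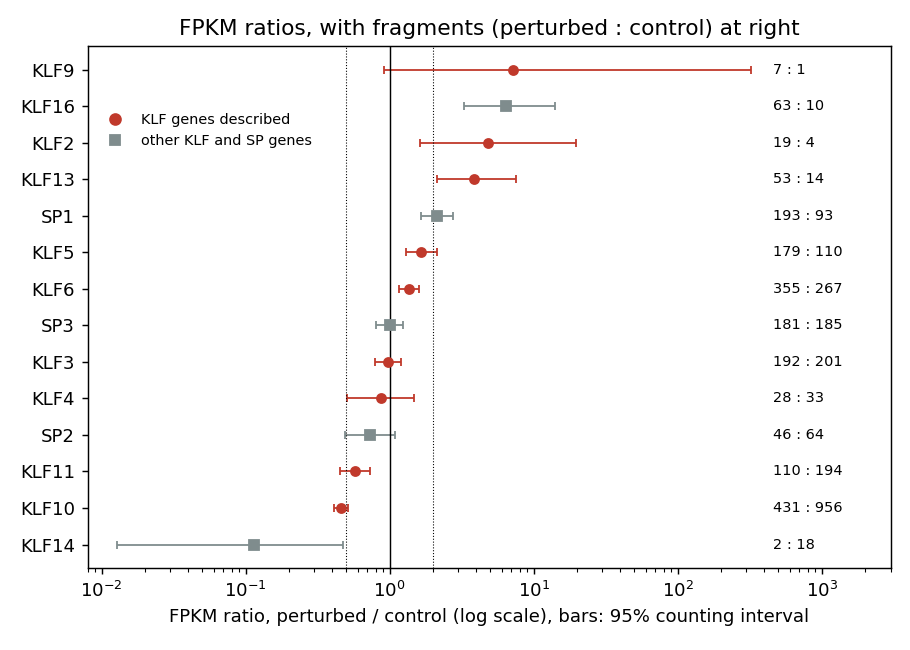
Ratio of FPKM, perturbed over control, on a log axis for KLF genes (red) and for other KLF and SP genes (grey), with 95% counting intervals as bars, dotted lines at a ratio of 2 and its inverse, and fragment numbers (perturbed : control) at the right. KLF2 (19 : 4) and KLF13 (53 : 14) lie to the right of 1, KLF10 and KLF11 to the left, and the interval of KLF9 (7 : 1) crosses 1.

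Summed over the 10 genes, KLF RNA was at 42.4 FPKM in the perturbed library against 56.0 FPKM in the control. KLF10 made up 36.2% of the sum in the perturbed library and 59.5% in the control. Without KLF10, the other 9 genes summed to 27.1 and 22.7 FPKM, the opposite direction. The 5 activator genes took 43.3% of the sum in the perturbed library and 22.0% in the control. The 4 SIN3-binding genes took 46.3% and 69.9%. The sums are dominated by a few genes and describe these 10 genes only, not all KLF RNA in these libraries. They leave out the SIN3-binding genes KLF14 and KLF16, whose values are given below.

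The order of the levels also differed between the libraries. In the control it ran from KLF10 through KLF6, KLF11, KLF3, KLF5, KLF4, KLF2 and KLF13 to KLF9. From KLF6 down to KLF5, each gene's counting interval overlapped that of the next, as did those of KLF2 and KLF13. In the perturbed library it ran from KLF10 through KLF6, KLF5, KLF3, KLF11, KLF2, KLF4 and KLF13 to KLF9. There the neighbours KLF3 and KLF11 overlapped, and so did KLF2, KLF4 and KLF13 in turn. KLF10 stood clear of KLF6 in each, at 1.68 times its level in the perturbed library and 4.96 times in the control. KLF5 was at 2.03 times the level of KLF11 in the perturbed library and at 0.709 times in the control.

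The promoters of KLF2 and KLF13 are shown because these genes had the highest folds among those whose interval excluded 1. RefSeq promoter entries on build GRCh38.p14 were used for 8 of the 10 genes, with 13 start sites. None was used for KLF3 or KLF10, so neither gene enters the motif counts. The 250 bases upstream of the start are given 5′ to 3′ on the gene's strand, which is the plus strand for both, with 2 motifs in capitals. These are the GC box GGGCGG, which KLF and SP proteins can bind, and CTA and TAG with any 4 bases between them, the frame of the site bound by MEF2 factors, each searched on both strands. The KLF2 window is chr19:16324576-16324825 and the KLF13 window chr15:31326585-31326834.
KLF2: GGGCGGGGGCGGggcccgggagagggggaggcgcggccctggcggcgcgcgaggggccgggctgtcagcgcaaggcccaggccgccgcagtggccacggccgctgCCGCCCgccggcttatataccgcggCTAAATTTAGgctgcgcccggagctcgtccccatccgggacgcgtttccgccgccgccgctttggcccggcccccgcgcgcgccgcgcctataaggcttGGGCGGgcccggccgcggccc
KLF13: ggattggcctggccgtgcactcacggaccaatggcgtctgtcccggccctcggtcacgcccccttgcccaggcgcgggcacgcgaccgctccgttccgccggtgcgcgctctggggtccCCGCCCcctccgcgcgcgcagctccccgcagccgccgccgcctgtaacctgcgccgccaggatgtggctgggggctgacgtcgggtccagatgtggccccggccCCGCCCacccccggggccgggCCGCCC

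Upstream of KLF2, the letters of the GC box occurred 4 times, 2 of them side by side at the 5′ end. The MEF2 frame occurred once, as CTAAATTTAG, beginning 120 bases before the start. Upstream of KLF13, the GC box occurred 3 times and the MEF2 frame did not occur. No copy of the GC box overlapped one of the MEF2 frame. Across all 35116 RefSeq windows of this length, 42.6% held the GC box and 2.36% held the MEF2 frame. Of the other members, KLF4 had 4 copies and KLF6 had 2, and copies lay at 1 start each of KLF5 (2 copies) and KLF7 (4 copies) and at both starts of KLF11 (2 and 6 copies). The second KLF11 window also held a MEF2 frame, CTAGCGGTAG, beginning 18 bases before the start. The frame leaves its middle 4 bases open. They were GCGG at KLF11 and AATT at KLF2, so the 2 matches are not alike. A match to the frame need not be a MEF2 site, and the 2.36% is a share of windows with the frame only. The KLF9 window held none and was 32.4% G and C, against 80.0% for KLF2. CACCC had no copy upstream of KLF2 and 1 upstream of KLF13, where it overlapped a GC box. Copies also lay upstream of KLF5, KLF7 and KLF11, and 54.7% of all windows held CACCC. A match is a description of letters, and neither binding nor use of these starts was measured here.

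The remaining family genes gave a reference. Of 7 other KLF genes, 1 was at 1 FPKM or more, and it was called higher. This was KLF16, a SIN3-binding repressor, at 2.65 FPKM in the perturbed library against 0.411 FPKM in the control, 6.44-fold higher (3.28 to 14.1) on 63 and 10 fragments. With trends on length, GC content and level removed, its log2 ratio of 1.37 became 0.89, and with a pseudocount of 5 FPKM it was 0.50, each of which ends the call. KLF1 and KLF17 were listed at 0 in both libraries, and the remaining 4 were under 1 FPKM. Of 9 SP genes, which share the zinc fingers, 3 were at 1 FPKM or more and none was called. SP1 was at 4.34 and 2.05 FPKM, 2.12-fold higher (1.65 to 2.75). SP3 was at 4.14 FPKM in each library, and SP2 was at 1.78 and 2.43 FPKM. SP1 and SP3 are ubiquitous factors that occupy the same GC boxes as KLF proteins.

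Partner proteins were described by lists, whose counts of calls and medians are to be read beside the 7.85% called higher and 7.61% called lower among all genes and their median of -0.06. Of 9 corepressors and coactivators that KLF proteins recruit, 1 was called higher and none lower, near the share over all genes, and the median log2 ratio was 0.69. CTBP2, a CtBP corepressor, was at 18.4 FPKM in the perturbed library against 4.61 FPKM in the control, 3.99-fold higher (3.08 to 5.17). Its paralog CTBP1 was at 16.3 and 9.68 FPKM. The SIN3 scaffold SIN3A was at 3.91 and 2.03 FPKM, and its paralog SIN3B at 7.33 and 6.42 FPKM. Of the 9, 7 had the higher value in the perturbed library and 2 the lower. These 2 were HDAC1, the most abundant of the list, at 95.8 and 117 FPKM, and HDAC2 at 14.8 and 20.2 FPKM. The summed levels of the list were 162 and 163 FPKM. Both CtBP genes had the higher value in the perturbed library, and KLF3 had about the same value in each. Of 6 ubiquitin ligases tied to turnover of KLF proteins or of their SMAD partners, 2 were called higher, against 7.85% of all genes, and none lower, with a median of 0.78 beside -0.06. FBXW7, the ligase subunit that marks KLF5 for degradation, was at 2.41 and 0.131 FPKM, 18.4-fold higher (6.88 to 69.3) on 72 and 4 fragments. SMURF1, a ligase for SMAD proteins, was at 5.0 and 1.99 FPKM, and its log2 ratio, just past 1, became 0.79 with the trends removed, which ends its call. Of the 6, 4 had the higher value in the perturbed library and 2 the lower. The 2 were WWP1, at 1.94 and 2.55 FPKM, and VHL, at 5.85 and 6.29 FPKM, each with an interval that includes a fold of 1.

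A further 3 lists covered signals known to induce KLF genes. The kinase ERK5, encoded by MAPK7, and the MEF2 factors induce KLF2 and KLF4. None of the 4 genes of this list at 1 FPKM or more was called, with a median log2 ratio of -0.30. MAPK7 was at 4.13 FPKM in the perturbed library against 8.25 FPKM in the control, and MEF2D was at 6.39 and 8.48 FPKM. Of the 4, 3 had the lower value in the perturbed library. The 1 with the higher value was MAP2K5, at 4.29 and 2.30 FPKM, 1.86-fold higher (1.20 to 2.93). TGF-beta signals through SMAD proteins to KLF10 and KLF11. None of the 6 TGF-beta receptor and SMAD genes at that level was called, with a median of -0.11, and the ligand genes TGFB1 and TGFB2 were under 1 FPKM in both libraries. In the perturbed library 2 of the 6 had the higher value, TGFBR2 at 6.58 and 3.62 FPKM and SMAD3 at 7.15 and 5.32 FPKM, and 4 had the lower. Among these were SMAD2 at 3.64 and 6.43 FPKM, 1.76-fold lower (1.56 to 2.01), and TGFBR1 at 1.24 and 2.1 FPKM, 1.69-fold lower (1.23 to 2.35). With trends on length, GC content and level removed, SMAD2 was called lower at -1.15. The glucocorticoid receptor induces KLF9. Of 5 genes of that response at 1 FPKM or more, 1 was called lower and none higher, with a median of -0.40. It was TSC22D3, which encodes the glucocorticoid-induced leucine zipper, at 19.6 and 52.2 FPKM, 2.67-fold lower (2.36 to 3.03). Of the 5, 3 had the lower value in the perturbed library and 2 the higher. The receptor gene NR3C1 was among the 2, at 3.39 and 1.66 FPKM, 2.04-fold higher (1.49 to 2.83).

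**Figure D4:**
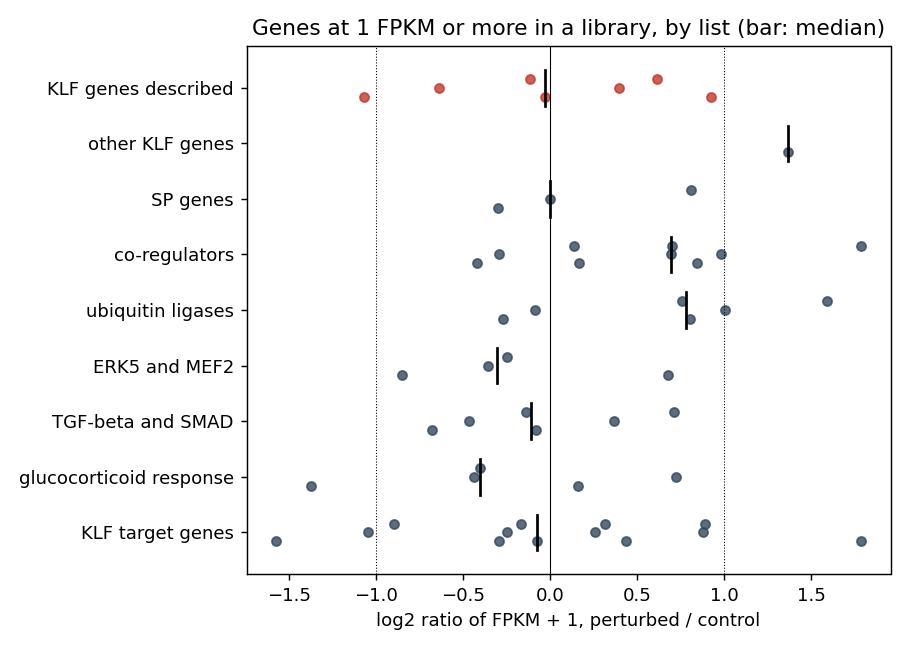
Log2 ratio of FPKM + 1, perturbed over control, for the genes of each list at 1 FPKM or more in a library, 1 point per gene, with the median as a bar and dotted lines at -1 and 1. The 7 KLF genes (red) spread from -1.07 to 0.93 around a median of -0.03.

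Genes described elsewhere as KLF targets were read last. Of 18 such genes, 13 were at 1 FPKM or more in a library, 1 was called higher and 2 lower, and the median log2 ratio was -0.07. With 7.85% and 7.61% of all genes called, and a median of -0.06, these values are near the background and give no result about the targets as a list. TAGLN, a smooth-muscle actin-binding protein gene controlled by KLF4 and KLF5, was at 174 and 49.5 FPKM. The keratin gene KRT19, which KLF4 activates in some epithelia, was at 0.356 FPKM in the perturbed library against 3.04 FPKM in the control, 8.56-fold lower (3.06 to 33.2). CDKN1A, the cell-cycle inhibitor gene that KLF4 and KLF6 can activate, was at 41.2 and 86.4 FPKM. Its log2 ratio of -1.05 became -0.99 with ratios centred on the median of all genes, which ends that call. These genes answer to many other factors, and no KLF protein or binding was measured.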

How the data were processed

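The authors deposited 1 table per library with an FPKM value for each gene symbol, per the file headers. Tools listed in the submitters' processing notes are Cuffdiff 2.2.1, TopHat2 2.1.1, SAMtools 0.1.18 and Bowtie2 2.2.8, with the build hg19. For the annotation, the filters and any scaling between libraries, the sources used here give nothing. Per the labels' protocols, cDNA was made with a SMART-Seq kit and libraries with Nextera XT.

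Log2 ratios used a pseudocount of 1 FPKM, and folds are ratios of deposited FPKM. Genes of the tables were matched to GENCODE 29 transcripts with a RefSeq match, for length and GC content (90.6% of genes, all 10 KLF genes). Depth and a shortening of 200 bases were chosen jointly so that the most single-transcript genes lay at the value of 1 fragment. Of the ratios of 1129 low genes (above 0 and under 0.3 FPKM in each library), 78.6% fell within 0.002 (log2) of a ratio of whole numbers from 1 to 8. Fragment numbers were whole pairs matching the ratio within 0.0003 (log2), with a sum up to 120, or otherwise came from length. Folds have Clopper-Pearson intervals and levels exact Poisson intervals. Python 3.11.15, scipy 1.17.1 and pandas 2.3.3 were used, and the functions were tested on simulated data.

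The KLF genes, the lists and the tests were chosen with earlier results of these data known. Outside the lists' calls, the named genes were all KLF genes, family genes at 1 FPKM or more, and the 2 most abundant genes of a list without a call. CTBP1, SIN3A, SIN3B, HDAC1, HDAC2, MAP2K5, WWP1, VHL, NR3C1, SMAD2, TGFBR1, KLF3-AS1 and marker genes were added after their values were seen. The level of 1 leukocyte marker is not reported here. With 1 library per group, no test was made and no p-value is given.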

Additional observations from a re-analysis of the deposited data

How the results depend on the processing

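The alternatives were 2 other pseudocounts, 3 other scalings, 3 other filters, 2 other rules of size and removal of trends. The number of KLF genes called higher, 0 as reported, was 1 with a pseudocount of 0.1 FPKM and 1 with libraries scaled to a common sum, KLF2 in each, and 2 under a 1.5-fold rule, KLF2 and KLF5. The number called lower, 1 as reported, was 0 with a pseudocount of 5 FPKM, 0 with libraries scaled to a common sum, 0 under a 4-fold rule and 0 with trends on length, GC content and level removed, and it was 2 under a 1.5-fold rule, KLF10 and KLF11. The cause was not tested beyond what each setting does by construction. The median log2 ratio of the KLF genes ran from -0.12 (5 FPKM or more in a library) to 0.31 (common sum), over the genes each setting admits: 4 at 5 FPKM, and 8 under the common sum, where KLF13 entered. Over the same 7 genes as reported, the common sum gave 0.09. Scaling to a common sum moved the median of all genes by 0.13, and 1257 genes were then higher and 685 lower, against 925 and 897. No ratio of a KLF gene that was called changed sign. A pseudocount of 0.1 FPKM gave 1630 and 1267, one of 5 FPKM 219 and 380, 5 FPKM or more in a library 546 and 694, 1 FPKM or more in both 557 and 700, a 1.5-fold rule 2253 and 2505, and a 4-fold rule 71 and 84. Among the other genes called, a pseudocount of 5 FPKM left FBXW7 at 0.53, SMURF1 at 0.52, KRT19 at -0.59 and CDKN1A at -0.98, all short of the rule, and KLF16, FBXW7 and KRT19 fell outside both stricter filters. No paired analysis was possible because there was 1 library per group. The depth limits KLF2, KLF4, KLF9 and KLF13 most.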

Other observations

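Some weakly expressed relatives of the KLF genes differed between the libraries as well, and they are named here after their values were seen. KLF14, a SIN3-binding relative of KLF16, was at 0.0883 FPKM in the perturbed library against 0.778 FPKM in the control. The ratio matched 2 and 18 fragments, 8.81-fold lower (2.11 to 78.3), so this gene lay on the side of KLF10 and KLF11 while KLF16 lay on that of KLF13. KLF12, a CtBP-binding relative of KLF3, was at 0.169 FPKM in the perturbed library, about 16 fragments on its long transcript, and was listed at 0 in the control. The acetyltransferase gene KAT2B was at 1.27 and 0.263 FPKM, 4.83-fold higher (2.49 to 10.3), and CREBBP was at 2.17 and 0.603 FPKM. Neither passed the rule of size, with log2 ratios of 0.85 and 0.98. CREBBP passed it at 1.10 under a common sum, 1.04 with ratios centred on the median and with the trimmed mean, and both genes passed with a pseudocount of 0.1 FPKM and under a 1.5-fold rule. With trends on length, GC content and level removed, they were at 0.54 and 0.38.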
